A study of Mus musculus with 6 samples.

Results

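Hvcn1, which encodes the voltage-gated proton channel Hv1, and 6 genes of NADPH oxidases (Cybb, Cyba, Ncf1, Ncf4, Rac2 and Nox4) were followed in RNA from the substantia nigra (SN) of MitoParks and littermate controls. The 7 genes were taken by symbol from a deposited table of 24054 genes, and all 7 were found. They were chosen by the values themselves, since Hvcn1 was known from these mice to be higher in MitoParks, and the oxidase genes were selected on their link to Hv1. The difference between MitoParks and littermate controls in these 7 genes is therefore given as a description without a test. The 3 MitoParks carried Cre recombinase at 1 of the 2 copies of the dopamine transporter gene and floxed Tfam at both (Dat +/Cre: Tfam loxP/loxP), so that Tfam, which encodes mitochondrial transcription factor A, is deleted in cells that express the transporter. The 3 littermate controls were Tfam +/loxP: Dat +/+, without Cre but with 1 floxed Tfam copy of their own, and by the methods they could come from litters of the MitoPark line or of a parent strain. Both groups had a C57BL/6 background, received no treatment and were 16 to 17 weeks old, and the sex of each mouse is not given. That age is from the submitters' design text, and the study itself gives 17 weeks for this RNA. The labels call the controls C57BL/6 and give no allele of either group, so the alleles are those of the study's methods. Cre is driven from the transporter locus, so by design Tfam is not deleted in the microglia and macrophages in which most of the 7 genes are known to be expressed.

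The phagocyte NADPH oxidase moves electrons from NADPH across a membrane onto oxygen and so makes superoxide. Its membrane core is a pair of proteins, gp91phox (Cybb) and p22phox (Cyba), and it is switched on when cytosolic proteins, among them p47phox (Ncf1) and p40phox (Ncf4), and the small GTPase Rac2 join the core. Each electron that crosses leaves a charge behind, and Hv1 lets protons follow, which keeps the membrane potential and the cytosolic pH in a range where the oxidase can go on working. In brain, Hv1 and the phagocyte oxidase are best known in microglia. Nox4 encodes another oxidase catalytic subunit, which also pairs with p22phox but is active without the cytosolic subunits and is known from vessel and other non-phagocytic cells.

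The phagocyte oxidase genes are known targets of myeloid and interferon-regulated transcription factors, so the 250 bases before the start of each gene were searched on both strands for a PU box (GAGGAA), an interferon response element (GAAA, NN and GAAA in a row) and a CCAAT box (CCAAT). RefSeq sequences (GRCm38.p6) were found for 4 of the 7 genes. They are shown for Cybb and Ncf1, the genes with a match, 5′ to 3′ on the strand of the gene, and capitals mark the matches.
Cybb, chrX:9469325-9469574, minus strand: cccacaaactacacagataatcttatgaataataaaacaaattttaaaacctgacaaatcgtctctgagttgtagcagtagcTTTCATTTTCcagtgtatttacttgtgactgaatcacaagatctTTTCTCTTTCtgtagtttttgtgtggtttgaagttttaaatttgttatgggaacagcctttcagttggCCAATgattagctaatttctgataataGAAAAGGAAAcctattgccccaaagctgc
Ncf1, chr5:134229626-134229875, minus strand: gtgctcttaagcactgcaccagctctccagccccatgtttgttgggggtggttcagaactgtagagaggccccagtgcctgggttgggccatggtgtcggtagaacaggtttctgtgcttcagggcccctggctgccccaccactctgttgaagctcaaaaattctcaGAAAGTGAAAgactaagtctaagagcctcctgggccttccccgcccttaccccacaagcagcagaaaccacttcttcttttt
The Cybb sequence held 3 interferon response matches, which began 168 and 124 bases before the start on the opposite strand and 29 bases before it on the strand of the gene. It also held a CCAAT box 56 bases before the start, which did not overlap them. The Ncf1 sequence held 1 interferon response match, 82 bases before the start. Among 32851 promoters of the same length, 3.0% held an interferon response match, 33.8% a CCAAT box and 23.3% a PU box. None of the 3 motifs was found before Cyba (chr8:122432941-122433190, minus strand) or Nox4 (chr7:87246399-87246648, plus strand), and the PU box letters were found in none of the 4 windows. A match is a run of letters and not a measured binding site.

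The libraries held between 8140777 and 10528602 expected counts per mouse, and 3 counts corresponded to between 0.285 and 0.369 CPM. Levels are given as TMM-normalized CPM, in which counts are scaled to the size of their library, and an SD refers to 3 mice. Whether the mice of a group came from separate litters is not given, so the spread is that between these libraries. For Tfam, the targeted gene, littermate controls 1, 2 and 3 had 40.3, 44.3 and 45.4 CPM, and MitoParks 1, 2 and 3 had 32.6, 33.0 and 33.2 CPM. Littermate control 3 stood apart: the 8 dopaminergic neuron genes examined summed to 1047 CPM there, against 326 and 359 CPM in the other littermate controls and 191 to 347 CPM in MitoParks. Littermate control 2 stood apart in 5 choroid plexus markers, which summed to 159 CPM there and to 15.1 to 45.0 CPM in the other mice. The 20 microglia markers were all detected, at 474 to 644 CPM in sum in littermate controls and 605 to 685 CPM in MitoParks. The labels give the tissue only as brain, and the dopaminergic genes were present in all 6 mice.

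All 7 genes were read at low depth, between 1 and 100 counts per mouse. A filter of a mean above 1 CPM in at least 1 group kept 6 of them among 14568 genes. Ncf4 was removed by it, and the mean of Cybb was above 1 CPM in MitoParks alone. The cutoffs were an unadjusted p below 0.05 by edgeR's quasi-likelihood test and a fold change above 1.5, and 0.378% of the genes tested were past them as higher in MitoParks and 0.199% as lower. Of the 6 genes, 1 (Hvcn1) was past the cutoffs as higher and 0 as lower, a count that the choice of Hvcn1 fixed. Every MitoPark lay above every littermate control for 2 of the 6 genes (Hvcn1 and Rac2), which was so for 2.43% of all genes tested, and every MitoPark lay below for 0, against 2.28%. The log2 fold change was above 0 for 5 genes and below 0 for Nox4, with a median of 0.38 where the median over all genes was -0.0047. Nothing is read from this count or median, since Hvcn1 was chosen by the same contrast and Cybb passed the filter only through MitoParks. No gene of the table had an adjusted p below 0.05, and 161 genes had an unadjusted p below 0.05.

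**Figure D1:**
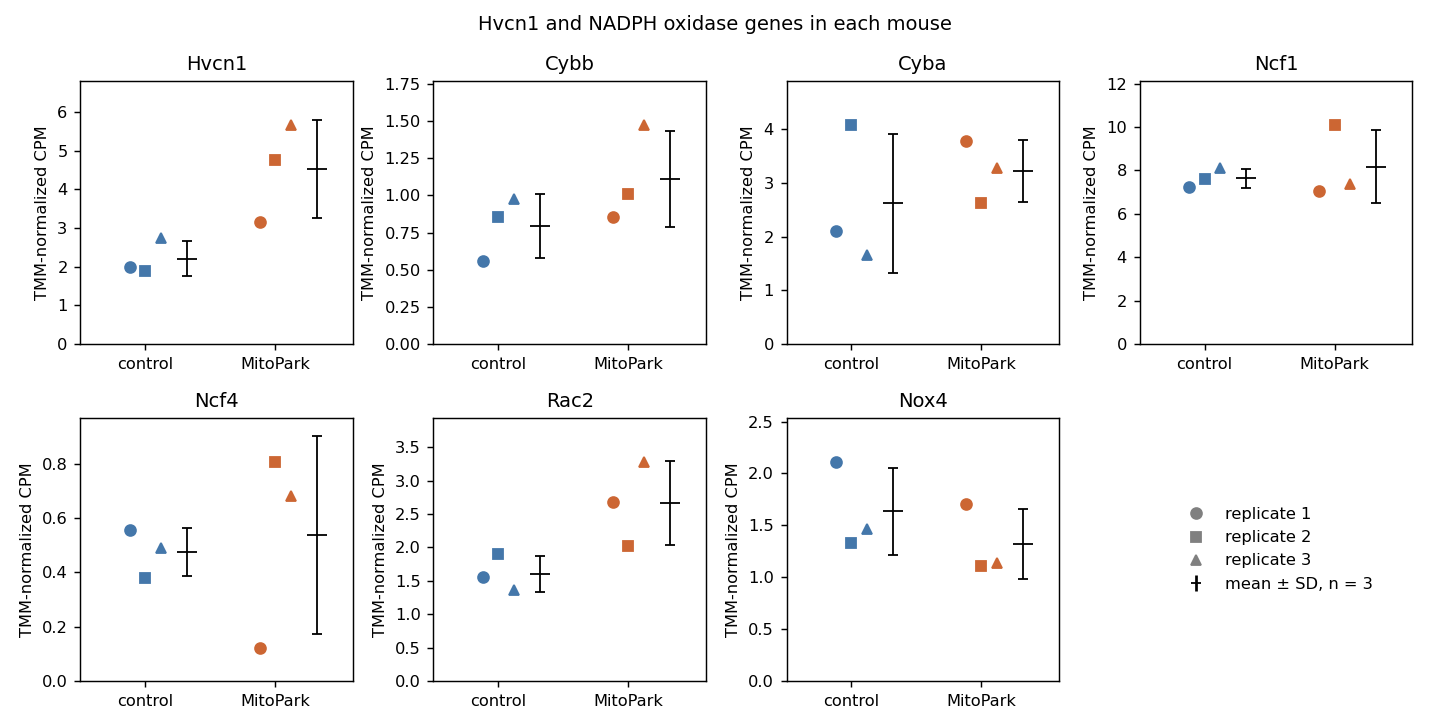
TMM-normalized CPM of the 7 genes in each mouse, on a linear axis from 0 that differs between panels. Points are single mice (circle, square and triangle for replicates 1, 2 and 3), and the black bars are the mean and SD of 3 mice. Only Hvcn1 and Rac2 have all 3 MitoParks above all 3 littermate controls.

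Hvcn1 had the largest difference of the 7 genes, which its choice by this contrast favoured. Its level was 2.00, 1.90 and 2.73 CPM for littermate controls 1, 2 and 3, against 3.17, 4.75 and 5.66 CPM for MitoParks 1, 2 and 3. The means were 2.21 ± 0.456 and 4.53 ± 1.26 CPM (SD, n = 3 each), with a log2 fold change of 1.03 (SE 0.31). MitoPark 1 was close to the littermate controls, and MitoParks 2 and 3 were set well apart from them. Before normalization the groups did overlap, since MitoPark 1 had 26 counts (95% Poisson interval 17.0 to 38.1, for counting error only) and littermate control 3 had 28 (18.6 to 40.5), in libraries that differed in depth. The spread of the littermate controls was 0.964 times the SD that counting alone gives and that of MitoParks 1.78 times. Hvcn1 was past the cutoffs whichever mouse was left out (6 fits), at log2 fold changes of 0.84 to 1.24. It was at 0.93 without littermate control 2 and at 1.21 without littermate control 3. These fits reuse the mice by which Hvcn1 was chosen and are no independent support.

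The Hvcn1 counts were not whole numbers in any mouse, so part of its reads had been divided between genes. In the GENCODE M21 annotation of GRCm38, Hvcn1 lies on the opposite strand to Tctn1, which encodes the tectonic 1 protein of the ciliary transition zone, and 1574 of its 3563 exon bases (44.2%) are also exon of Tctn1. Tctn1 was singled out after the values were seen. The libraries were made strand-specific, and the sources used here do not state whether the counting used the strand.

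Over all genes of the table, Tctn1 was the only one whose expected counts added to those of Hvcn1 to give a whole number in all 6 mice (within 0.015). In littermate controls 1, 2 and 3, Hvcn1 had 17.68, 19.69 and 28.44 expected counts and Tctn1 255.32, 271.31 and 198.56, which sum to 273, 291 and 227. In MitoParks 1, 2 and 3, Hvcn1 had 26.21, 46.59 and 49.73 and Tctn1 230.79, 185.41 and 299.27, which sum to 257, 232 and 349. Tctn1 thus held most of the reads of the pair in each mouse. The share of Hvcn1 in the sum was 6.48%, 6.77% and 12.5% in littermate controls and 10.2%, 20.1% and 14.2% in MitoParks, so the groups overlapped between littermate control 3 and MitoPark 1.

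The sum of the pair overlapped between the groups. Tctn1 itself ran from 19.4 to 28.4 CPM in littermate controls and from 18.7 to 33.9 CPM in MitoParks (log2 fold change 0.13, SE 0.22, unadjusted p = 0.562 by edgeR's quasi-likelihood test). The sum of Hvcn1 and Tctn1 was 26.7 ± 4.18 CPM in littermate controls and 31.4 ± 8.05 CPM in MitoParks (SD, n = 3 each). With the counts of both summed into 1 gene, the log2 fold change was 0.23 (SE 0.20), which was not past the cutoffs. Hvcn1 made up a mean of 8.59% of the pair's counts in littermate controls, so a change in Hvcn1 moves the sum little. The fit of the sum therefore cannot decide on the Hvcn1 difference. How many of the reads given to Hvcn1 came from the shared bases cannot be told from the table, and their part in the Hvcn1 difference was not tested.

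**Figure D2:**
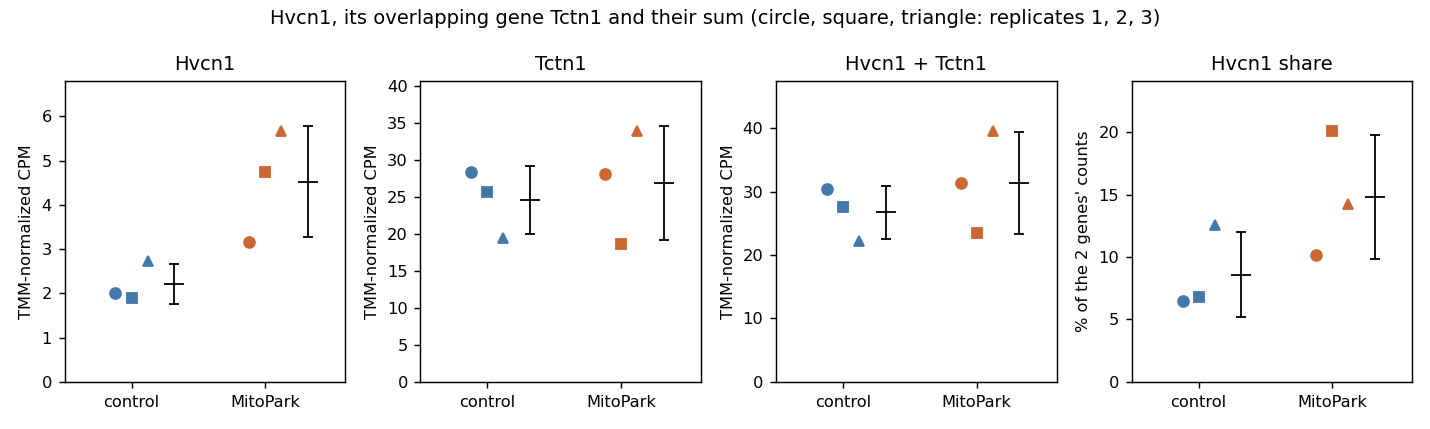
Hvcn1, Tctn1 and their sum in TMM-normalized CPM, and Hvcn1 as a percent of the counts of both genes, in each mouse. Points are single mice, bars are mean and SD of 3 mice, and all axes start at 0. The groups separate for Hvcn1 and overlap in the other 3 panels, with the Hvcn1 share at 12.5% in littermate control 3 and 10.2% in MitoPark 1.

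The genes of the membrane core had smaller log2 fold changes than Hvcn1, with errors as large as the changes or nearly so. Cybb, the catalytic subunit, was at 0.556, 0.854 and 0.976 CPM in the littermate controls, against 0.852, 1.01 and 1.47 CPM in the MitoParks, on 5 to 13 counts per mouse. The groups overlapped, and the log2 fold change was 0.47 (SE 0.43), with a spread within each group below the SD of counting alone (0.767 and 0.914 times). Cyba, which encodes the p22phox that stabilises both gp91phox and Nox4, was at 2.11, 4.08 and 1.66 CPM in the littermate controls, against 3.77, 2.63 and 3.28 CPM in the MitoParks. The highest and the lowest value of the 6 were both from littermate controls. The log2 fold change of Cyba was 0.29 (SE 0.37), and it rested on single littermate controls, at 0.77 without littermate control 2 and 0.04 without littermate control 3.

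Of the cytosolic subunits, Ncf1 had the most reads of the 7 genes, 58 to 100 per mouse. Its level was 7.23, 7.59 and 8.1 CPM in the littermate controls, against 7.06, 10.1 and 7.36 CPM in the MitoParks. MitoParks 1 and 3 lay within or just below the range of the littermate controls, and MitoPark 2 alone lay above it. The log2 fold change of Ncf1 was 0.10 (SE 0.20), and -0.08 without MitoPark 2. Its reads were whole numbers in every mouse, although 408 of its 3663 exon bases (11.1%) are also exon of Gtf2ird2 on the opposite strand, a gene named after its values were seen.

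Ncf4, whose p40phox assists the oxidase at phagosomes, was the sparsest of the 7. Littermate controls had 5, 4 and 5 counts of it, and MitoParks had 1, 8 and 6, or 0.475 ± 0.0891 and 0.536 ± 0.365 CPM (SD, n = 3 each). Fitted without the filter, its log2 fold change was 0.21 with an SE of 0.68, so a difference of the size seen in Hvcn1 was not detectable at this depth.

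Rac2, the GTPase that activates the assembled oxidase in blood-derived cells, was the other gene without overlap. It was at 1.56, 1.90 and 1.37 CPM in the littermate controls, against 2.68, 2.02 and 3.28 CPM in the MitoParks. MitoPark 2 and littermate control 2 each had 20 counts when rounded and were set apart only by the depth of their libraries. The means were 1.61 ± 0.269 and 2.66 ± 0.633 CPM (SD, n = 3 each), with a log2 fold change of 0.72 (SE 0.32) that was not past the cutoffs with all 6 mice. It was past them in 1 of the 6 fits that left out a mouse, at 0.89 without MitoPark 2, and was lowest at 0.53 without MitoPark 3. The Rac2 counts were fractional in all 6 mice, and 0 single genes of the table completed them to whole numbers, so Rac2 also shared reads with other genes, which are not identified here.

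Nox4 was the only one of the 6 genes fitted with a lower mean in MitoParks. It was at 2.11, 1.33 and 1.46 CPM in the littermate controls, against 1.70, 1.11 and 1.13 CPM in the MitoParks, on 10 to 19 counts per mouse. MitoPark 1 lay within the range of the littermate controls and MitoParks 2 and 3 lay below it. The log2 fold change was -0.31 (SE 0.37), and it was -0.09 without littermate control 1 and -0.52 without MitoPark 1.

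The order of the 7 genes was taken per length, since a longer transcript gives more reads. Divided by the length of the longest coding transcript, the mean levels in littermate controls were 3.52 CPM per kilobase for Cyba, 2.65 for Ncf1, 0.788 for Hvcn1, 0.529 for Rac2, 0.436 for Nox4, 0.324 for Ncf4 and 0.167 for Cybb. In MitoParks they were 4.34, 2.84, 1.61, 0.876, 0.351, 0.366 and 0.234 CPM per kilobase in the same order of genes. The regulatory subunit Cyba was thus read at a higher level per length than its partner Cybb in both groups.

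Of the 6 neighbouring pairs in that order, 2 kept their order in all 6 mice, Ncf1 above Hvcn1 and Hvcn1 above Rac2. An exact sign-flip permutation test within mice gave p = 0.0312 for each of these, the smallest p that 6 mice allow, and 0.0938 after adjustment over the 6 pairs. No neighbouring pair therefore had an adjusted p below 0.05. The pairs were taken from the order of the means in these same mice, so the p-values are no independent support for the order. For the other pairs the adjusted p was 0.125 for Rac2 above Nox4, 0.188 for Cyba above Ncf1 and for Ncf4 above Cybb, and 0.594 for Nox4 above Ncf4 by the same exact test. With the shortest coding transcript of each gene in place of the longest, Rac2 (8.40 CPM per kilobase over the 6 mice) and Hvcn1 (7.89) came above Cyba (4.58) and Ncf1 (2.91), so the order rests on which transcript is taken as the length. The reads shared with Tctn1 enter the level of Hvcn1 as well.

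**Figure D3:**
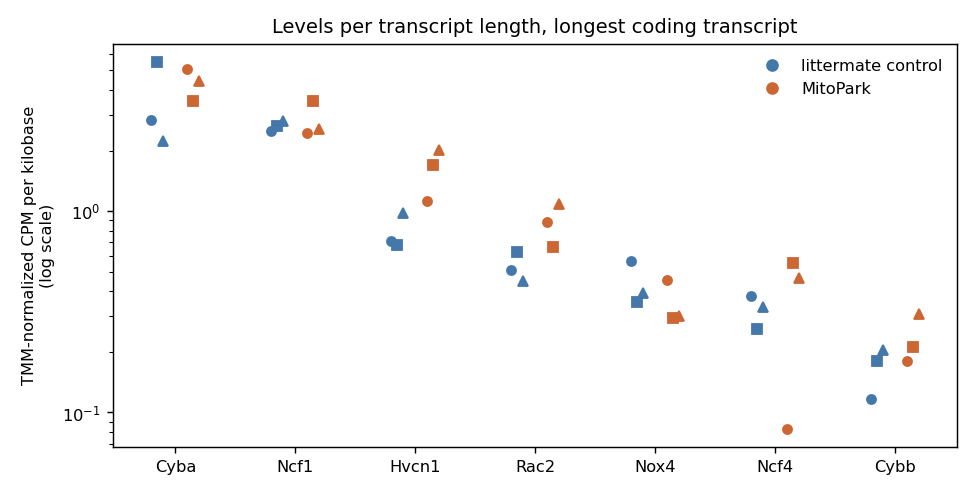
TMM-normalized CPM per kilobase of the longest coding transcript for the 7 genes in each mouse, on a log axis, from the highest mean (Cyba) to the lowest (Cybb). Blue points are littermate controls and orange points MitoParks. Cyba and Ncf1 overlap at the top, and Nox4, Ncf4 and Cybb overlap at the bottom.

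The genes around the 7 in the same system were described from lists. The oxidase family list held 16 other genes, of which 15 were in the table and 8 were tested. Of these, 7 had a log2 fold change above 0 and 1 below, with a median of 0.05, and 0 were past the cutoffs in either direction. Noxo1, the organizer subunit of the Nox1 oxidase, was at 1.56, 1.52 and 1.76 CPM in the littermate controls, against 2.31, 2.22 and 2.94 CPM in the MitoParks. The groups did not overlap, which was so, with MitoParks higher, for 1 of the 8 tested, against 2.43% of all genes tested. The log2 fold change of 0.62 (SE 0.30) had an unadjusted p of 0.0656 by edgeR's quasi-likelihood test and was not past the cutoffs. Its partners, and the Duox and Duoxa genes of the list, were barely read. Nox1 had at most 5.91 counts in a mouse, Noxa1 at most 1.74 and Nox3 at most 1, and Duox1, Duox2, Duoxa1 and Duoxa2 at most 3.98. Rac1, the broadly expressed relative of Rac2, was at 337 ± 25.6 CPM in littermate controls and 345 ± 15.8 CPM in MitoParks (SD, n = 3 each), and Nrros, a negative regulator of gp91phox, had a log2 fold change of 0.07 (SE 0.36).

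Upstream of the oxidase, 30 of 32 genes of receptors, kinases and exchange factors were tested, with 16 log2 fold changes above 0, 14 below and a median of 0.0095. With all 6 mice none was past both cutoffs, and 2 had an unadjusted p below 0.05. The first was Itgb2, the integrin beta chain of phagocytes, with a log2 fold change of 0.58 (SE 0.24, unadjusted p = 0.0376, adjusted p = 0.999 by edgeR's quasi-likelihood test). The other was Dock2, a Rac exchange factor of leukocytes, at 0.55 (SE 0.24, unadjusted p = 0.0481, adjusted p = 0.999 by edgeR's quasi-likelihood test). For both, the lowest MitoPark was above the highest littermate control, and Dock2 was named after its values were seen. This separation held for 3 of the 30 genes tested here, against 2.43% of all genes tested, and the reverse for 0, against 2.28%. Itgb2 lay just under the fold cutoff and was past it with total counts (0.60), upper quartile normalization (0.59) and the filterByExpr filter (0.59), and without littermate control 3 (0.74) or MitoPark 1 (0.73). Dock2 was past both cutoffs without littermate control 3 (0.72) or MitoPark 2 (0.67). Of 6 tested myeloid transcription factors, 5 had a log2 fold change above 0, with a median of 0.30, and 0 were past the cutoffs. Among them Spi1, which encodes the myeloid factor that binds the PU box and was named after its values were seen, was at 0.51 (SE 0.30, unadjusted p = 0.126 by edgeR's quasi-likelihood test).

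The lists for other acid transport and for superoxide removal were centred near 0. Of 21 tested acid and base transport genes, 10 had a log2 fold change above 0 and 11 below, with a median of -0.00019, and 0 were past the cutoffs. All 13 genes that remove superoxide and peroxide were tested, with 7 above 0, 6 below, a median of 0.016 and 0 past the cutoffs. Sod1 and Sod2, the cytosolic and mitochondrial superoxide dismutases, were at 0.02 (SE 0.11) and -0.08 (SE 0.13).

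**Figure D4:**
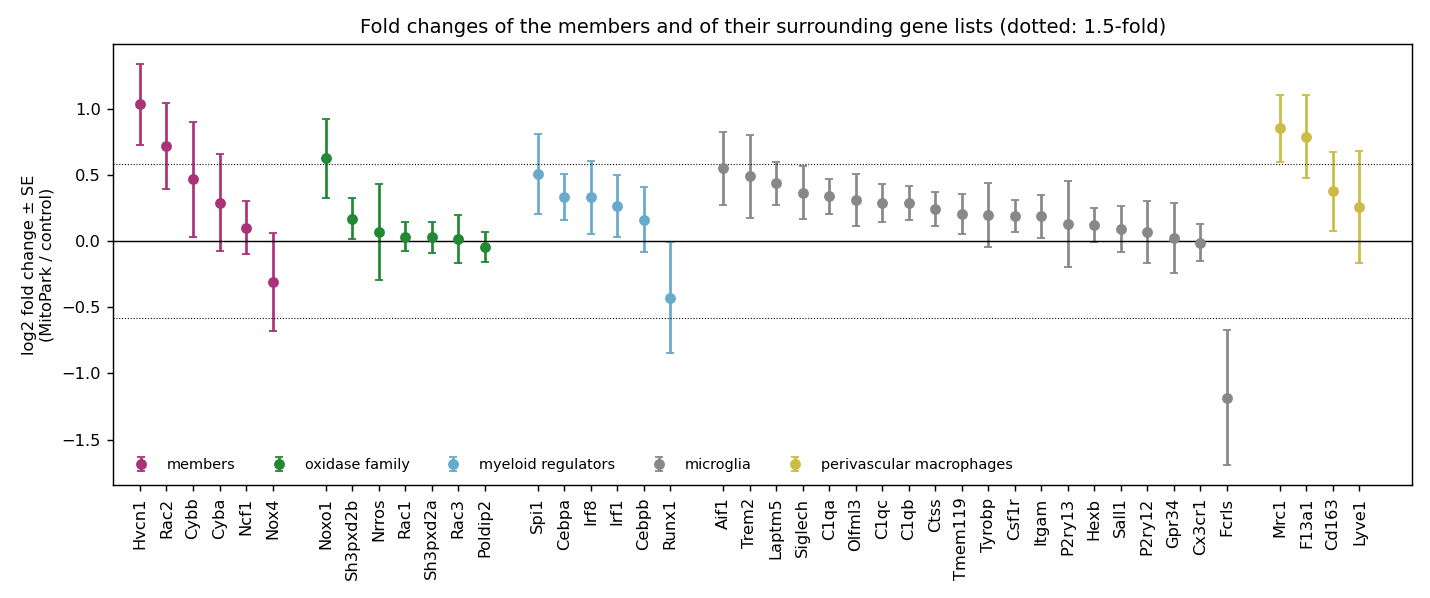
Log2 fold change (MitoPark over littermate control) with its standard error for the 6 genes fitted and for tested genes of 4 surrounding lists, n = 3 mice per group. Dotted lines mark a 1.5-fold difference in each direction. Hvcn1 is at 1.03, Mrc1 at 0.85 and Fcrls at -1.18, and most other genes lie between the dotted lines.

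Levels in tissue RNA depend on how many cells of a type were present, and more cells and more RNA per cell cannot be told apart here. Of the 20 microglia markers, 18 had a log2 fold change above 0 and 2 below, with a median of 0.20. Every MitoPark lay above every littermate control for 5 of the 20 and below for 0, against the 2.43% and 2.28% of all genes. With all 6 mice, none was past the cutoffs as higher. C1qa, a complement subunit (0.34, SE 0.13, unadjusted p = 0.031), and Laptm5, a lysosomal protein of blood-lineage cells (0.44, SE 0.16, unadjusted p = 0.0234), had an unadjusted p below 0.05 and an adjusted p of 0.999 by edgeR's quasi-likelihood test, and were named after their values were seen. Fcrls was past them as lower (-1.18, SE 0.51, unadjusted p = 0.0438 by edgeR's quasi-likelihood test, adjusted p = 0.999) with all 6 mice, but in only 1 of the 6 fits that left out a mouse, the one without littermate control 1, and it was at -0.66 without littermate control 2. Relative to the summed markers, Hvcn1 was at 0.423%, 0.342% and 0.425% in littermate controls and 0.516%, 0.785% and 0.827% in MitoParks. The means were 0.396% ± 0.0472 and 0.709% ± 0.169 (SD, n = 3 each), a ratio of 1.79, and the groups did not overlap. The ratio was 1.85 without littermate control 3.

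The oxidase genes had lower ratios to the microglia markers than Hvcn1. Hvcn1 was chosen because it was higher in MitoParks, which favoured its place above them, and that place is not read as a result. On the same scale, as a ratio of MitoParks to littermate controls, Rac2 was at 1.41, Cybb at 1.23, Cyba at 1.06, Ncf4 at 0.965, Ncf1 at 0.938 and Nox4 at 0.686. The groups overlapped for each of these 6 genes, Rac2 included, which had been without overlap in CPM.

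Markers of perivascular macrophages, which also express the phagocyte oxidase, included 2 genes that were higher in MitoParks past the cutoffs. They were 2 of 4 tested, where 0.378% of all genes tested were past them as higher. The list was chosen with earlier results of these data known. The 6 genes of the list summed to 7.12, 9.39 and 7.71 CPM in the littermate controls, against 10.5, 13.3 and 12.9 CPM in the MitoParks, without overlap in the sum. Of 4 tested, all had a log2 fold change above 0, with a median of 0.58. Ms4a7, named after its values were seen, had at most 5 counts in a mouse and 0 in MitoPark 2, and it was not tested. Mrc1, the mannose receptor, was at 2.00, 2.47 and 2.44 CPM in the littermate controls, against 3.65, 4.65 and 4.19 CPM in the MitoParks (0.85, SE 0.25, unadjusted p = 0.00817 by edgeR's quasi-likelihood test, adjusted p = 0.999), and it was past the cutoffs in all 6 fits that left out a mouse. F13a1, a coagulation factor subunit made by macrophages, was at 0.79 (SE 0.31, unadjusted p = 0.0323 by the same test, adjusted p = 0.999) and was past them in 2 of those 6 fits, the one without littermate control 3 and the one without MitoPark 1. The part of these cells in the Hvcn1 difference was not tested.

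Markers of blood-derived cells were at low levels. The 4 monocyte markers summed to at most 1.81 CPM in any mouse, the 8 neutrophil markers found to at most 1.89, the 7 B cell markers to at most 1.81 and the 7 T and NK cell markers to at most 0.974, and none of their genes passed the filter. B cells, which also express Hvcn1, summed to 0.556 to 0.879 CPM in littermate controls and 0.609 to 1.81 CPM in MitoParks. Elane, a defining neutrophil gene, had 0 counts in all 6 mice, which allows up to 3 counts per mouse. Vascular smooth muscle and pericyte markers, beside Nox4, overlapped between groups at 115 to 159 CPM in littermate controls and 100 to 174 CPM in MitoParks.

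**Figure D5:**
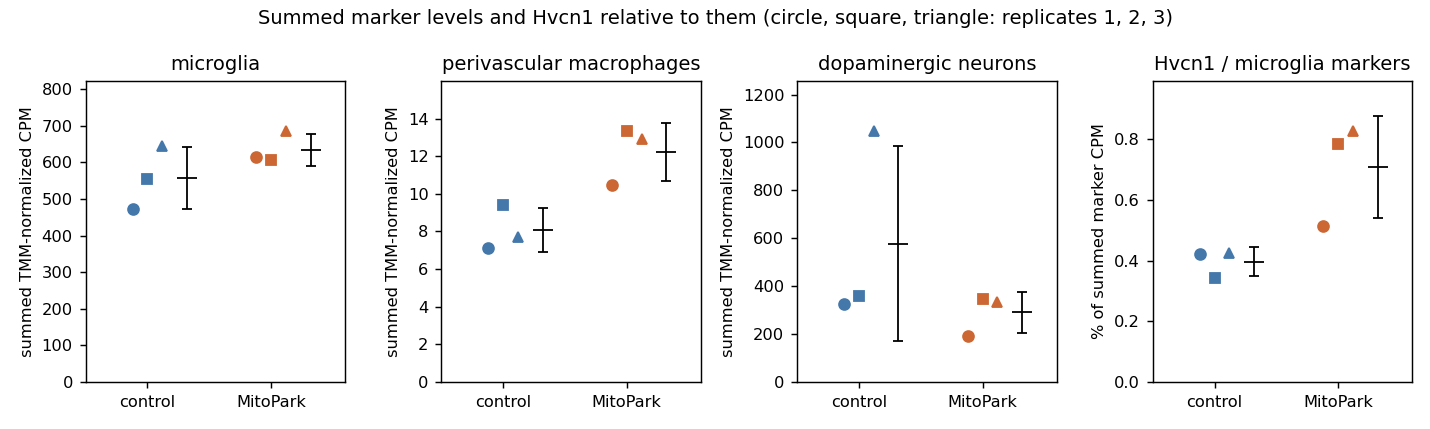
Summed TMM-normalized CPM of the markers of microglia, perivascular macrophages and dopaminergic neurons in each mouse, and Hvcn1 as a percent of the summed microglia markers. Points are single mice and bars are mean and SD of 3 mice, on axes from 0. The groups separate for perivascular macrophages and for the Hvcn1 percent, and littermate control 3 stands apart at 1047 CPM of dopaminergic markers.

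Within the 7 genes, the correlations of levels over the 6 mice went in both directions. On log2(CPM + 0.5), Pearson's r of Hvcn1 was 0.82 with Cybb, 0.68 with Rac2 and 0.43 with Ncf4. It was 0.39 with Ncf1, 0.10 with Cyba and -0.69 with Nox4. Among the other pairs, r ran from -0.85 (Cybb with Nox4) to 0.70 (Cyba with Rac2), and it was -0.28 for Ncf1 with Cyba. These are descriptions over 6 libraries that share 2 groups, without a test.

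The genes whose levels over the 6 mice were most like Hvcn1 were Itgb2 (Pearson's r = 0.98, Spearman's rho = 1.00), 2010315B03Rik (0.98, 1.00), Atf3 (0.98, 1.00), Col27a1 (0.98, 0.94) and H2-T9 (0.97, 1.00). Itgb2 ran from 3.99 CPM in littermate control 2 to 8.38 CPM in MitoPark 3, as Hvcn1 ran from 1.90 to 5.66 CPM in the same mice. Among 14567 genes, 70 had an r above 0.9. For the mean profile of Cybb, Cyba, Ncf1 and Rac2 the genes most alike were others, among them Cwc27, Spata1, Acacb and Cflar. Their r was 0.98, 0.97, 0.97 and 0.96, and 61 of 14564 genes were above 0.9. Each list holds the highest values picked from all genes tested over only 6 mice, and Hvcn1 was chosen by its group difference. How many genes would reach such values without a relation was not tested, and no shared regulation is read from them.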

How the data were processed

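Polyadenylated RNA from 3 MitoParks and 3 littermate controls was sequenced from strand-specific libraries. Per the study's methods and the submitters' processing notes, the authors mapped reads to UCSC transcripts with Bowtie2 2.1.0 and estimated expected counts per gene with RSEM 1.2.15. They deposited these expected counts without normalization. The notes list only a human genome build for these mouse samples, so the build behind the counts is not given in the sources used here, and coordinates are those of the RefSeq and GENCODE M21 annotations. Groups were taken from the sample labels.

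After rounding to whole numbers, counts were normalized by TMM. Genes whose mean CPM was above 1 in either group were fitted with edgeR 4.0.16 in R 4.3.3 (quasi-likelihood test, no covariate). Benjamini-Hochberg adjustment was over all genes tested. The procedure had first been tested on simulated data with changes larger than those of the 7 genes, so smaller ones were not covered. A gene was called where its unadjusted p was below 0.05 and its fold change above 1.5. Members and gene lists were chosen with earlier results of these data known. Named genes were the 7 members, the oxidase family, called genes and up to 4 of the highest genes of other lists, Tfam, and the 5 genes most correlated with each profile. Named outside this rule, after their values were seen, were Tctn1, Gtf2ird2, Dock2, Spi1, C1qa, Laptm5, Ms4a7 and Elane. Some genes that this rule takes are not reported here. Profiles used a pseudocount of 0.5 CPM. Counts of no pair of mice within a group agreed within sampling noise.

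Alternatives were DESeq2 1.42.0, limma-voom (limma 3.58.1), edgeR's likelihood ratio and exact tests, robust dispersion, 3 other normalizations, 2 other filters, counts left unrounded, a replicate block, an adjusted p cutoff, the shortest transcript, another scaling of the markers and each mouse left out. The sum of Hvcn1 and Tctn1 was added after the data were seen. Scripts used Python 3.11.15, numpy 2.4.6, scipy 1.17.1, pandas 2.3.3 and matplotlib 3.10.9.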

Additional observations from a re-analysis of the deposited data

How the results depend on the processing

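Hvcn1 was past the cutoffs under all 12 other tests, normalizations, filters and models of its own counts, and in all 6 fits without a mouse. It was chosen by this contrast. These fits of the same mice show how the call depends on the processing and are no independent support. With Tctn1 counts added to Hvcn1, an alternative chosen after seeing the data, the log2 fold change was 0.23 and not past the cutoffs. Tctn1 held most of the counts of the pair, so the sum mainly follows Tctn1 and cannot decide on the Hvcn1 difference. The number of genes past the cutoffs was 84, 176 without the filter on low counts, 0 at an adjusted p below 0.05, and 62 to 219 with 1 mouse left out (133 without littermate control 1, 219 without littermate control 3, 217 without MitoPark 2). The members past them numbered 1, and 1 to 2 with 1 mouse left out (Rac2 at 0.89 without MitoPark 2). Oxidase family genes past them numbered 0, and 0 to 1 with 1 mouse left out (1 without littermate control 3). Microglia markers past them numbered 1, 0 with limma-voom and with robust dispersion, and 0 to 2 with 1 mouse left out (0 without littermate control 2 or MitoPark 3, 2 without littermate control 3). With all 6 mice the marker was Fcrls. Without littermate control 3, MitoPark 1 or MitoPark 2, Fcrls was not past them and other markers, not named here, were. With 1 mouse left out, the log2 fold change of Ncf1 ran from -0.077 (without MitoPark 2, a change of sign) to 0.20, and that of Tctn1 from -0.07 (without MitoPark 3) to 0.35, with -0.0096 without littermate control 3. The cause of these changes was not tested. Neighbouring pairs that kept their order in every mouse numbered 2, and 2 to 3 with 1 mouse left out. The ratio of Hvcn1 to the microglia markers was 1.62 by the mean of log2 marker levels and 1.64 to 2.03 with 1 mouse left out. At 1 to 100 counts per mouse, depth limits each of the 7 genes, and Ncf4 most.

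The replicate numbers do not pair the mice by any label, and mice with the same number deviated from their group means with correlations of 0.352, -0.069 and 0.277 for replicates 1, 2 and 3. With the replicate block, 126 genes were past the cutoffs, 72 of them shared with the 84, Hvcn1 was at 1.02 and remained past them, the members past them numbered 1, oxidase family genes 0 and microglia markers 1.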
